A study of Homo sapiens with 12 samples.

Results

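HEK293T cells, a human embryonic kidney line that carries the SV40 large T antigen, were transfected either with an siRNA against POLR3A or with a control siRNA, and polyadenylated RNA was sequenced 2 days later. The comparison holds 6 of the 12 libraries of the series, 3 labelled siPOLR3A and 3 labelled siControl, and it was made across the 15404 genes that passed a filter on low counts. Both groups received the same lipid transfection reagent, and the labels name no further treatment, clone selection or transgene. The other 6 libraries, in which the same line was given the small molecule Pol III inhibitor ML60218 (25 uM) or the vehicle DMSO (0.1%) for 4 hours, enter only where they are named. The labels do not say whether the 3 libraries of a group came from separate cultures, so the p-values measure the spread between these libraries, which may be technical.

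RNA polymerase III makes short untranslated RNAs, among them transfer RNAs, 5S ribosomal RNA, the U6 spliceosomal RNA, 7SK and the RNA parts of RNase P and RNase MRP. POLR3A encodes its largest subunit, which forms the catalytic centre together with POLR3B. TFIIIA, TFIIIC and TFIIIB, or the SNAP complex at genes with upstream promoters, place the enzyme on its genes, and MAF1 represses it when nutrients are short. Pol III's own products have no poly(A) tail, so they were not analysed here, and the values below describe messenger RNA.

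The 6 libraries held between 37008325 and 43062101 estimated reads, and 91.03 to 91.26% of them fell on transcripts that could be tied to a gene. Between 15139 and 15488 genes had 10 reads or more in a library, and mitochondrial transcripts took 8.16 to 9.73% of the matched reads, with overlapping ranges in the 2 groups.

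The labels call the cells epithelial. The epithelial keratin KRT18 stood at 24.5 to 30.3 TPM, a length-corrected abundance, KRT8, CDH1 and EPCAM at 1.83 to 5.48 TPM, CLDN3 and CLDN4 at no more than 0.568 TPM, and KRT19 was listed at 0. EPCAM went from 1.83 to 2.19 TPM with control siRNA to 3.60 to 4.09 TPM with POLR3A siRNA and CDH1 from 2.60 to 3.61 TPM to 3.90 to 4.51 TPM. Both of these and KRT18 were called higher, and CLDN4 lower. Of the regulators of embryonic kidney, SIX2 and GATA3 stood at 15.5 to 21.4 TPM, PAX2, WT1, EYA1 and LHX1 at 0.68 to 5.19 TPM and PAX8 at no more than 0.0342 TPM, with SIX2 called higher and WT1 and EYA1 lower. Among markers of other cell types, the fibroblast collagen COL1A1 stood at 19.9 to 28.1 TPM and was called higher, while COL3A1, DCN and LUM were called lower. The endothelial markers PECAM1, CDH5, VWF and TEK were at no more than 0.0861 TPM, and the blood markers PTPRC and HBB were listed at 0. The globin HBA1 was at 6.35 to 8.34 TPM with control siRNA and at 18.1 to 19.95 TPM with POLR3A siRNA. The part of these markers in the other results was not tested.

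POLR3A mRNA was strongly depleted. Its level was 92.2, 93.5 and 86.8 CPM in the siControl libraries and 19.3, 19.04 and 14.6 CPM in the siPOLR3A libraries. Every siPOLR3A library lay below every siControl library, and the difference on the log2 scale was -2.36 with a standard error (SE) of 0.11 (adjusted p = 1.94e-05, edgeR's quasi-likelihood test with Benjamini-Hochberg adjustment over all genes tested). Throughout, levels are CPM, counts relative to library size, after scaling by the trimmed mean of M-values, fold changes are siPOLR3A over siControl on the log2 scale, and a gene is called when its adjusted p is below 0.05. In bulk RNA, fewer cells that carry a transcript and less of it per cell cannot be told apart.

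Depletion went with many changes of small size. Of the 15404 genes, 8722 were called (56.6%), 4222 of them higher (27.4%) and 4500 lower (29.2%). The first principal component held 84% of the variance and separated the 2 groups, and the CPM ranges of the groups did not overlap for 9772 genes (63.4%). The median size of a called change was 0.33 on the log2 scale. Changes of at least 2-fold were called for 290 genes upward (1.88%) and 299 downward (1.94%). The split between directions depended on scaling: 48.4% of the calls were higher as reported, against 57% when libraries were scaled by total counts and 58.7% by the upper quartile. The share called rose with the level, from 25.1% in the lowest quartile of genes to 74.3% in the highest. The share called lower rose more steeply, from 8.6% to 42.8%, than the share called higher, from 16.5% to 31.5%. Shares of gene lists below are set beside all genes tested, not beside genes of like level. The part of level in them was not tested.

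**Figure D1:**
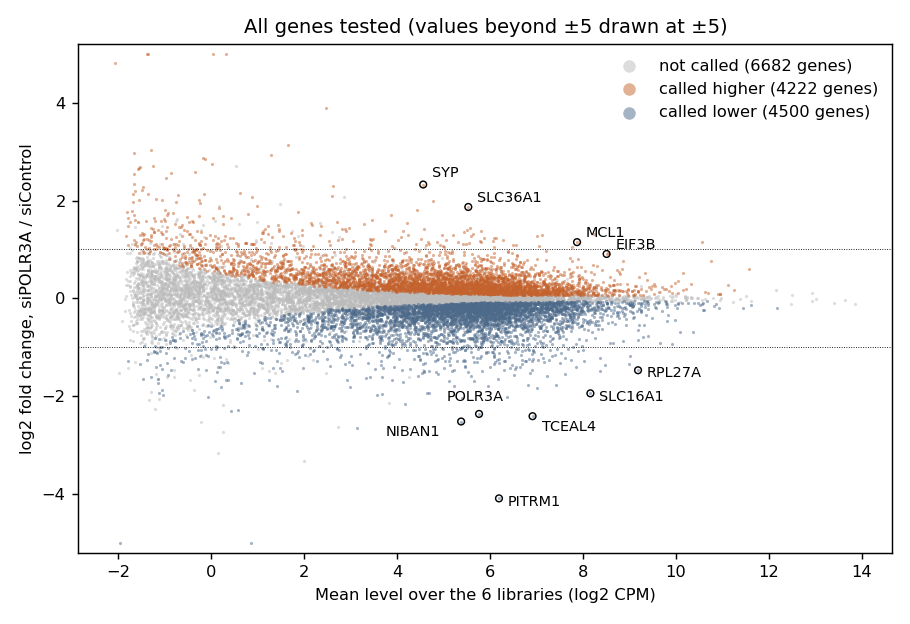
Log2 fold change (siPOLR3A over siControl, vertical axis) against the mean level over the 6 libraries (log2 CPM, horizontal axis), 1 point per gene tested, with called genes in colour and dotted lines at 2-fold. The 4222 higher and 4500 lower genes lie on both sides of 0 over the whole range of levels, and POLR3A at -2.36 and PITRM1 at -4.09 stand far below the bulk of genes.

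The largest rise among moderately to highly expressed protein-coding genes was that of SYP. SYP encodes synaptophysin, a membrane protein of synaptic vesicles, and stood at 7.03, 7.84 and 8.48 CPM in the siControl libraries and 38.2, 39.5 and 39.9 CPM in the siPOLR3A libraries, which is 2.33 on the log2 scale (SE 0.06, adjusted p = 1.79e-12). MAPK8IP2, a scaffold of the JNK kinase pathway made mainly in neurons, was measured at 10.6, 10.8 and 11.3 CPM with control siRNA and 42.1, 42.1 and 45.04 CPM with POLR3A siRNA (1.98, SE 0.05). NTN1, the axon guidance cue netrin-1, gave 9.87, 9.35 and 9.05 CPM with control siRNA and 31.1, 35.4 and 32.9 CPM with POLR3A siRNA (1.81). In each of these 3 genes the lowest siPOLR3A library was at least 3 times as high as the highest siControl library. STMN3, a stathmin that binds tubulin, rose by 1.54 from 9.90, 9.74 and 8.66 CPM with control siRNA to 27.8, 27.99 and 26.5 CPM with POLR3A siRNA. MDGA1, a membrane-anchored protein that binds neuroligins, rose by 1.51 and held 5.21, 4.62 and 5.31 CPM with control siRNA and 15.2, 13.7 and 14.3 CPM with POLR3A siRNA. With an offset for isoform length its rise was 0.84.

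The other leading rises had varied functions. SLC36A1, a proton-coupled amino acid transporter of lysosomes and the cell surface, was nearly constant within groups, at 19.7, 19.6 and 20.1 CPM in the siControl libraries and 72.5, 72.5 and 72.2 CPM in the siPOLR3A libraries (1.87, SE 0.03, adjusted p = 5.31e-14). ARRDC4, an alpha-arrestin that restrains glucose uptake, rose by 1.44, with 25.2, 25.03 and 26.1 CPM with control siRNA and 70.97, 69.03 and 66.9 CPM with POLR3A siRNA. DNMT3B, a de novo DNA methyltransferase, rose by 1.42, with 12.8, 12.8 and 13.2 CPM with control siRNA and 31.6, 33.1 and 39.4 CPM with POLR3A siRNA. The small GTPase gene RAB39A rose by 1.38, with 7.60, 7.43 and 6.999 CPM with control siRNA and 18.8, 18.9 and 19.8 CPM with POLR3A siRNA. The remaining 3 of the 12 largest rises are less certain in identity. SYT15B (1.39) has a near-identical copy, SYT15, MSANTD3-TMEFF1 (1.70) is a readthrough locus over neighbouring genes, and ENSG00000255330 (1.61) has no symbol in the tables used. MSANTD3-TMEFF1 lost its call without siControl replicate 1 (adjusted p = 0.0531).

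The deepest of the 12 leading falls, larger than that of POLR3A itself, belonged to a mitochondrial protease. PITRM1, a peptidase of the mitochondrial matrix that degrades cleaved presequences, stood at 141, 139 and 133 CPM in the siControl libraries and 7.66, 4.62 and 12.3 CPM in the siPOLR3A libraries (-4.09, SE 0.29, adjusted p = 0.000362). Its siPOLR3A libraries spread more widely than those of other leading genes, and all lay more than 10-fold below the siControl libraries. With reads of neighbouring, unmatched transcripts added to each gene, the fall was -2.62. TCEAL4 and TCEAL3, members of an X-linked family related to the elongation factor TFIIS, fell by 2.41 and 2.65. TCEAL4 held 197, 211 and 201 CPM with control siRNA and 39.7, 37.1 and 37.8 CPM with POLR3A siRNA. TCEAL3 held 14.9, 15.3 and 15.1 CPM with control siRNA and 2.82, 2.24 and 2.13 CPM with POLR3A siRNA and has close paralogs whose reads could be split.

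SLC16A1, FADS1 and SLC27A2 were among the other leading falls. SLC16A1, the monocarboxylate transporter MCT1 that carries lactate and pyruvate, was the most abundant of the 12 genes, at 440.3, 459 and 460.5 CPM in the siControl libraries and 122, 119.7 and 112 CPM in the siPOLR3A libraries (-1.94, SE 0.03, adjusted p = 4.21e-14). FADS1, the delta-5 fatty acid desaturase, held 199, 205 and 202 CPM with control siRNA and 57.6, 55.5 and 56.2 CPM with POLR3A siRNA (-1.84). SLC27A2, an acyl-CoA synthetase for very long chain fatty acids, held 18.04, 19.1 and 19.3 CPM with control siRNA and 5.10, 4.002 and 5.33 CPM with POLR3A siRNA (-1.97). The control and knockdown ranges were far apart in all of these, with within-group differences of a few CPM for the rarer genes.

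The rest of the 12 falls had varied functions. NIBAN1, a stress-induced cytosolic protein, held 74.1, 69.4 and 68.5 CPM with control siRNA and 12.7, 11.6 and 12.8 CPM with POLR3A siRNA (-2.52). CDC123, an assembly factor of the initiation factor eIF2, held 129.9, 131 and 136 CPM with control siRNA and 32.9, 33.4 and 31.9 CPM with POLR3A siRNA (-2.02). TXNDC12, a thioredoxin-like enzyme of the endoplasmic reticulum, held 66.3, 66.9 and 68.2 CPM with control siRNA and 16.4, 16.1 and 16.5 CPM with POLR3A siRNA (-2.04). The groups did not overlap in any of these 3 genes. HERC5, the main ligase for the ubiquitin-like modifier ISG15, held 39.8, 38.97 and 40.02 CPM with control siRNA and 10.1, 11.1 and 9.70 CPM with POLR3A siRNA (-1.94). HABP4 and MFSD6, an RNA-binding protein and a member of the major facilitator superfamily, fell by 1.94 and 1.95. Among all 24 leading genes the ranges of the groups were separate, which the rule that chose them required.

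**Figure D2:**
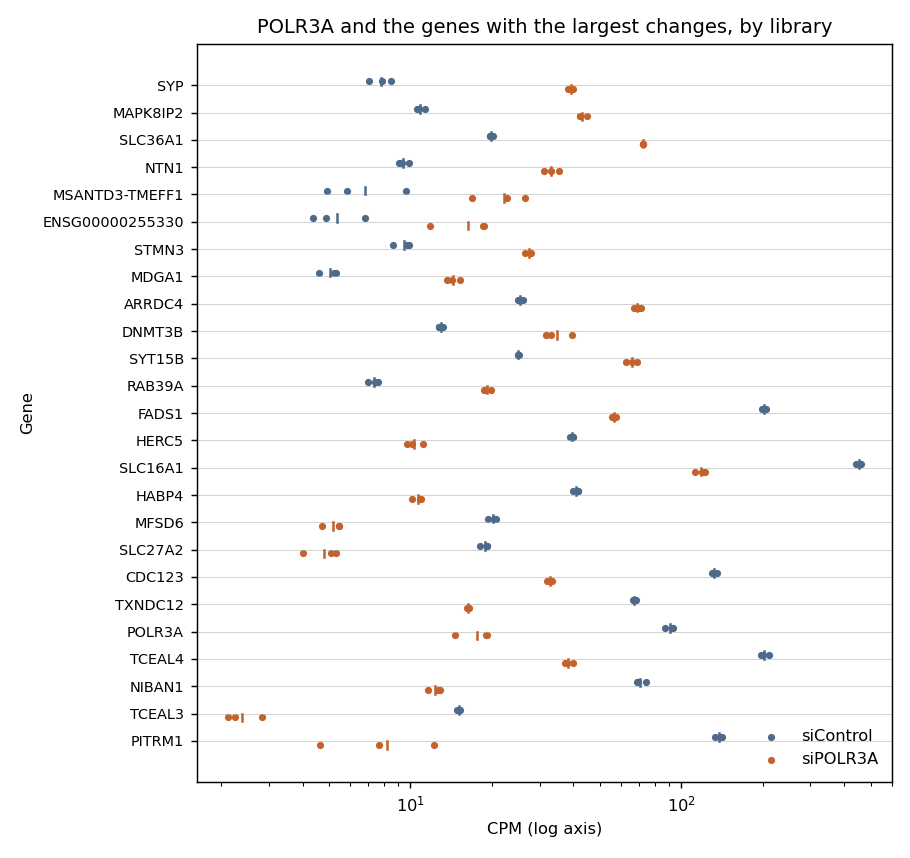
CPM of each library (log horizontal axis) for POLR3A and the 12 genes with the largest rises and the 12 with the largest falls, sorted by fold change, with siControl in blue, siPOLR3A in orange and a bar at each group's mean. In every gene shown the 3 siPOLR3A points lie wholly to 1 side of the 3 siControl points, and PITRM1, ENSG00000255330 and the readthrough locus MSANTD3-TMEFF1 have the widest spread.

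A small interfering RNA can lower, besides its target, other transcripts whose 3′ UTR pairs with its short seed. The sequence of the POLR3A siRNA is not given in the sources used here, so whether its seed pairs with the sequences below was not tested. The 3′ UTRs were searched on the transcript strand for 2 hexamers that earlier results of these data had pointed to, GAGGGA and GACGTA, in the most abundant coding transcript of each gene. GAGGGA was present in 33% of the 14189 3′ UTRs and GACGTA in 3.68%. POLR3A's own 3′ UTR holds 1 copy of the first hexamer, and so do the 3′ UTRs of 8 of the 12 genes with the largest falls, with 1 to 4 copies. Windows of 30 bases from POLR3A and 6 of these genes show the hexamer in capitals in its setting, 5′ to 3′ on the transcript strand, in GRCh38 coordinates. A single copy per gene is shown, and the base after the hexamer varies between copies. Copies not shown are followed by G, T or A in NIBAN1, by C or T in FADS1 and by T in HERC5. In SLC16A1, MFSD6 and SLC27A2 the copies not shown are followed by A.
POLR3A (chr10:77976956-77976985, minus strand): tttgttccatttGAGGGAtttggaattttt
NIBAN1 (chr1:184794687-184794716, minus strand): aggatgtctgagGAGGGAatagtattgcag
SLC16A1 (chr1:112913694-112913723, minus strand): cctgaatttgagGAGGGAatgattggtagc
MFSD6 (chr2:190500537-190500566, plus strand): actaagtaagtgGAGGGAatgaaagtgttt
FADS1 (chr11:61802187-61802216, minus strand): agaagtccctagGAGGGAaggagctgttgg
HABP4 (chr9:96490324-96490353, plus strand): cgcggaagcatgGAGGGAaaggaggttgta
CDC123 (chr10:12250483-12250512, plus strand): gggaaaaaaacgGAGGGActttgctacttg

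Genes with the hexamer GAGGGA stood lower the more copies they held. The median log2 fold change was 0.02 in the 9513 genes with no copy, -0.04 with 1 copy, -0.08 with 2, -0.08 with 3 and -0.12 in the 397 genes with 4 or more. The share called lower by at least 2-fold went from 1.04% with no copy through 3.34%, 4.36% and 4.81% to 6.55% with 4 or more. Seen from the other side, the hexamer was present in 65.3% of the 285 genes with a 3′ UTR that fell by at least 2-fold, in 39.3% of those that fell by less, and in 29.5% of the 5773 that were not called. The 3′ UTRs of genes with more copies were longer, with medians of 629 bases at no copy and 4717 at 4 or more. By quartile of 3′ UTR length the share lower by 2-fold was 5.26% with the hexamer and 1.25% without it in the shortest quartile, and 3.29% and 0.98% in the longest. The GC content of the transcripts differed too, with a median fraction of 0.573 with the hexamer and 0.525 without it in the shortest quartile, and of 0.466 and 0.426 in the longest, and the parts of length and GC content in these shares were not tested.

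Among all 4096 hexamers, GAGGGA ranked 3rd in the share of genes lower by 2-fold and 21st from the lowest in the difference of medians, where the 10 lowest consisted of A and T with at most a single G. Extending it by 1 base, GAGGGAA had the lowest median difference of its 8 extensions, -0.14, with 5.36% of 2015 genes lower by 2-fold. In the ML60218 arm the medians over the same copy classes ran from -0.01 to 0.03. Not all leading falls carried it: the 3′ UTRs of PITRM1, TCEAL3, TCEAL4 and TXNDC12 held no copy, although the rest of the transcript held 2, 5 and 7 copies in PITRM1, TCEAL3 and TCEAL4.

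The second hexamer went with higher levels. Of the 522 genes with GACGTA, 253 were called higher (48.5%) and 93 lower (17.8%), with a median of 0.17. Its difference of medians, 0.17, was the highest among the 4096 hexamers. The hexamers at ranks 2 to 10 contain C followed by G, as GACGTA does, with differences from 0.12 to 0.15. The part of that content was not tested. GAGGGA and GACGTA were taken from earlier results of these data, so their ranks are not independent support. GACGTA was present in 11.1% of the genes that rose by at least 2-fold and in 3.05% of those not called. NTN1, DNMT3B and RAB39A are among the leading rises that hold it. Windows from 5 risen genes show it in capitals, 5′ to 3′ on the transcript strand.
NTN1 (chr17:9240212-9240241, plus strand): gagaaatgacgaGACGTAgctacctcacgg
DNMT3B (chr20:32809224-32809253, plus strand): aactggagccacGACGTAacaaatatgggg
RAB39A (chr11:107962813-107962842, plus strand): agtatcgactagGACGTAaatagcagttcc
GRWD1 (chr19:48453145-48453174, plus strand): tggattctgtttGACGTAttgttctctaga
DDX10 (chr11:108940810-108940839, plus strand): gctcatgatttcGACGTAtttaatattttc

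Most genes, called or not, held neither hexamer. Of the 14189 genes with a 3′ UTR, 9291 were without either, and 5296 of these were called (57%, against 56.6% of all genes tested). Of the 9291, 2719 were higher (29.3%) and 2577 lower (27.7%), against 28.3% and 31.0% of the 14189. At least 2-fold, 144 of them rose and 99 fell. Of the 4376 genes with GAGGGA alone 1735 were lower (39.6%) and 1039 higher (23.7%), and of the 222 with GACGTA alone 122 were higher (55%) and 24 lower (10.8%). The 300 genes with both had a median of 0.12.

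**Figure D3:**
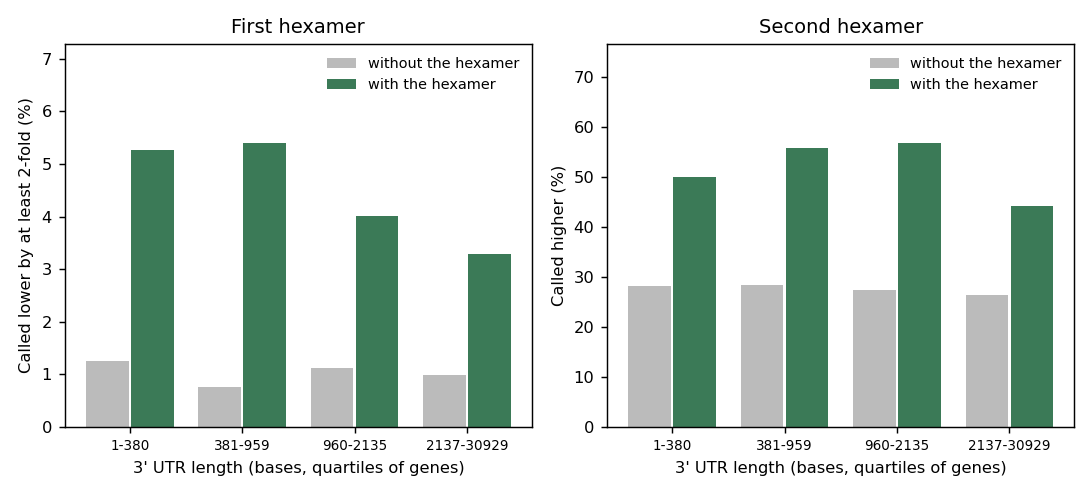
Share of genes (%) called lower by at least 2-fold, with and without the hexamer GAGGGA (left, first hexamer), and called higher, with and without GACGTA (right, second hexamer), in quartiles of genes by 3′ UTR length in bases. The green bars (with the hexamer) exceed the grey bars (without) in every quartile, and the shortest quartile of the right panel rests on 16 genes with the hexamer.

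The other Pol III subunits did not follow POLR3A as a group. Of the 10 specific subunits described here, POLR3A included, 2 were called higher, 3 lower and 5 neither, against 27.4% higher and 29.2% lower over all genes, and the median was -0.003. POLR3B, the second largest subunit and POLR3A's partner in the active site, stood at 69.5, 69.5 and 71.6 CPM in the siControl libraries and 68.4, 73.7 and 69.3 CPM in the siPOLR3A libraries (0.00, SE 0.03, adjusted p = 0.912), with overlapping groups. POLR3F, a subunit of the peripheral trimer that takes part in initiation, rose by 0.50, with 22.7, 22.1 and 21.2 CPM with control siRNA and 31.5, 29.2 and 32.6 CPM with POLR3A siRNA. CRCP, a part of the stalk that protrudes from the enzyme, rose by 0.30, with 47.7, 45.98 and 48.7 CPM with control siRNA and 58.6, 58.6 and 58.00 CPM with POLR3A siRNA. The separation of groups in both genes was complete, as it was for 63.4% of all genes tested. POLR3K, the subunit for RNA cleavage and termination, fell by 0.33, with 35.4, 37.2 and 40.1 CPM with control siRNA and 29.5, 30.4 and 29.7 CPM with POLR3A siRNA. POLR3D, the partner of POLR3E, fell by 0.13, stood at -0.37 with an offset for isoform length, and lost its call with scaling by total counts or the upper quartile. POLR3E, POLR3GL, POLR3G and POLR3C were not called, at -0.01, 0.02, -0.19 and 0.26. POLR3G and POLR3C were called in the same direction when neighbouring transcripts were added, at -0.23 and 0.20.

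Factors that recruit Pol III moved both ways. Of 17 listed, 16 were tested (BDP1 had too few reads on transcripts that could be tied to a gene). Of these, 6 were called higher (37.5%, against 27.4% of all genes), 5 lower (31.25%, against 29.2%) and 5 neither. SNAPC3, a DNA-contacting subunit of the SNAP complex that serves U6-type promoters, had the largest change of the list, with 94.4, 95.8 and 99.3 CPM in the siControl libraries and 49.8, 51.02 and 51.97 CPM in the siPOLR3A libraries (-0.92, SE 0.03, adjusted p = 1.73e-11). SNAPC1 and SNAPC5 of the same complex fell by 0.20 and 0.22, while SNAPC2 rose by 0.53 at 3.41, 2.89 and 3.08 CPM with control siRNA and 4.71, 4.49 and 4.31 CPM with POLR3A siRNA. TBP, the TATA-binding protein shared by all 3 nuclear polymerases, rose by 0.46, with 34.2, 35.3 and 34.5 CPM with control siRNA and 47.02, 48.3 and 47.8 CPM with POLR3A siRNA. Within TFIIIC, which binds the internal promoter of tRNA genes, GTF3C2 fell by 0.44 and GTF3C4, GTF3C5 and GTF3C6 rose by 0.39, 0.24 and 0.24. GTF3C1 and GTF3C3 were not called (-0.00 and -0.05), nor were the TFIIIB subunits BRF1 and BRF2 (-0.07 and 0.07). MAF1 mRNA, for the repressor, rose by 0.28, with 42.04, 44.6 and 45.9 CPM with control siRNA and 53.8, 52.5 and 54.3 CPM with POLR3A siRNA. The fall of GTF3A, the 5S-specific factor, was -0.10 (adjusted p = 0.0446) and lost its call under 11 of 19 alternatives, whose adjusted p reached 0.37. With a trend with GC content and length removed, the rises of SNAPC2, GTF3C5 and MAF1 were 0.33, 0.12 and 0.10. SNAPC4 spread from 3.59 to 13.0 CPM among the siControl libraries alone and was not called (0.48, SE 0.59).

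**Figure D4:**
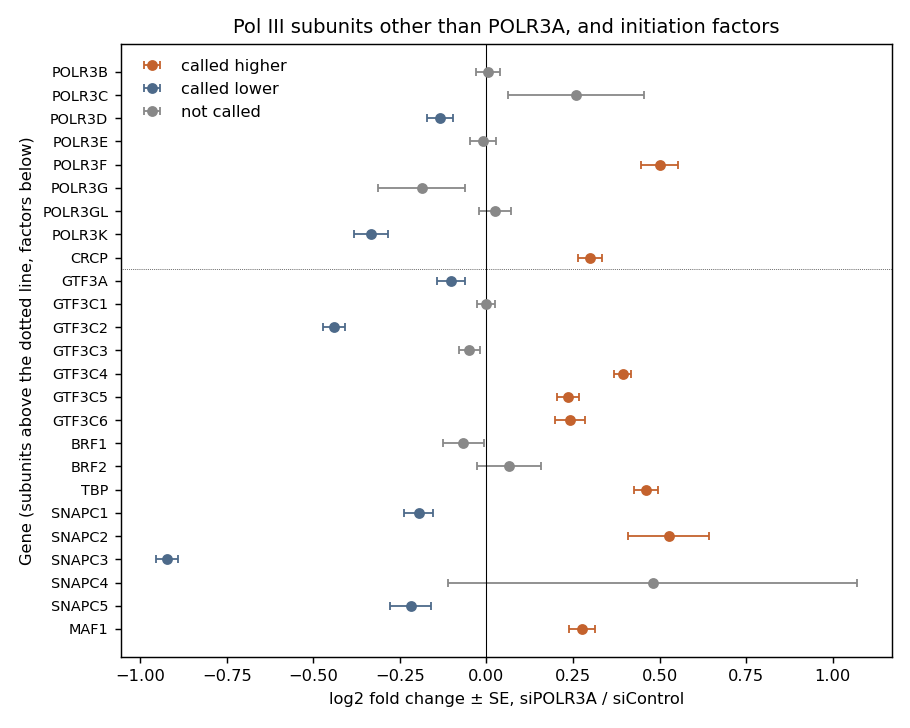
Log2 fold change with its standard error (horizontal axis) for the Pol III-specific subunits described here other than POLR3A (above the dotted line) and the initiation factors with MAF1 (below), coloured by call. SNAPC3 at -0.92 lies farthest to the left and SNAPC2 at 0.53, POLR3F at 0.50 and TBP at 0.46 are the called genes farthest to the right.

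Genes of the other polymerases changed modestly. Of 14 Pol I subunits and factors, 6 were higher (42.9%) and 4 lower (28.6%), with changes from -0.72 to 0.42. Of 12 subunits listed for Pol II, 7 were higher (58.3%) and 3 lower (25%). Over all genes the shares were 27.4% and 29.2%. POLR1G, a Pol I subunit, fell by 0.72, with 24.4, 29.3 and 27.2 CPM with control siRNA and 16.7, 16.3 and 15.9 CPM with POLR3A siRNA, and TAF1C, a part of the Pol I initiation factor SL1, rose by 0.42. POLR2D, which forms the stalk of Pol II, fell by 0.66, with 136, 136 and 139 CPM with control siRNA and 87.8, 85.9 and 85.6 CPM with POLR3A siRNA. TAF1C stood at 0.23 with a trend with GC content and length removed and POLR2D at -0.43 with an offset for isoform length. The fall of POLR2K, a subunit shared by the 3 enzymes, was -0.11 and lost its call under 9 of 19 alternatives.

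Proteins that bind Pol III transcripts were split. Of 30 tested, 10 were higher (33.3%, against 27.4% of all genes), 8 lower (26.7%, against 29.2%) and 12 neither, with a median of 0.01. RPP25L, a paralog of an RNase P and RNase MRP subunit, fell by 1.15, with 18.2, 16.5 and 17.9 CPM with control siRNA and 7.74, 7.54 and 8.42 CPM with POLR3A siRNA. SRP19 and SRP72 of the signal recognition particle fell by 0.80 and 0.33. LSM3 and LSM7, parts of the ring that binds the tail of U6 RNA, rose by 0.59 and 0.67, LSM7 from 24.4, 24.9 and 26.4 CPM with control siRNA to 40.5, 40.9 and 39.4 CPM with POLR3A siRNA, and POP1, the largest protein of RNase P, rose by 0.47. In each of these genes the groups were separate, which the rule that chose them required.

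Enzymes that charge tRNA showed small changes with few large exceptions. Of 22 cytosolic aminoacyl-tRNA synthetases, 6 were higher (27.3%, against 27.4% of all genes) and 10 lower (45.5%, against 29.2%). The balance turned to 9 and 7 with scaling by total counts. MARS1, for methionine, rose by 0.32, while SARS1, for serine, fell by 0.39, with 221, 219 and 221 CPM with control siRNA and 169, 170.3 and 164 CPM with POLR3A siRNA. EPRS1 and NARS1, for glutamate with proline and for asparagine, fell by 0.27 and 0.25. Of 16 mitochondrial synthetases, 7 were lower (43.75%, against 29.2% of all genes) and 0 higher (against 27.4%) by edgeR's quasi-likelihood test. At an unadjusted p below 0.05 of that test 1 was higher, and 0 were called higher by DESeq2 or limma-voom. However, 5 were called higher with scaling by total counts or by the upper quartile, and 3 lower with the latter. Without siControl replicate 2 the lower members numbered 4. TARS2 and LARS2, which charge mitochondrial tRNA with threonine and leucine, were the only members past 2-fold. TARS2 stood at 101, 103 and 103 CPM in the siControl libraries and 42.8, 43.97 and 43.2 CPM in the siPOLR3A libraries (-1.24, SE 0.03) and LARS2 at 87.7, 91.1 and 91.03 CPM with control siRNA and 42.4, 41.5 and 42.1 CPM with POLR3A siRNA (-1.10). Each 3′ UTR of this pair holds 1 copy of GAGGGA.

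Of 55 tRNA processing and modification genes, 21 rose (38.2%, against 27.4% of all genes) and 17 fell (30.9%, against 29.2%). TYW1, which acts in making wybutosine on phenylalanine tRNA, rose by 1.05, with 20.3, 20.2 and 21.9 CPM with control siRNA and 43.3, 43.2 and 42.6 CPM with POLR3A siRNA. WDR4, the partner of the METTL1 tRNA methyltransferase, rose by 0.89, with 21.7, 21.3 and 19.4 CPM with control siRNA and 38.1, 39.6 and 37.5 CPM with POLR3A siRNA, and TRMT112, an activator of several methyltransferases, rose by 0.66. TRMT6, a subunit of the m1A methyltransferase, fell by 0.70, with 53.7, 53.3 and 56.5 CPM with control siRNA and 34.8, 33.9 and 32.3 CPM with POLR3A siRNA. XPOT, the nuclear export receptor of tRNA, fell by 0.36, with 535, 519.8 and 534 CPM with control siRNA and 416, 412 and 413 CPM with POLR3A siRNA, and THG1L, which adds a guanine to histidine tRNA, fell by 0.61. The groups did not overlap for any of these 6 genes, which the rule that chose them required.

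The translation machinery was lower more often than higher at the level of initiation and elongation factors. Of 41 translation factors 23 were lower (56.1%, against 29.2% of all genes) and 10 higher (24.4%, against 27.4%), with a median of -0.09. With scaling by total counts 20 were lower and 11 higher. EIF4A1, the helicase of the cap-binding complex, was among the most abundant, with 1248, 1262 and 1293 CPM in the siControl libraries and 666, 673 and 663 CPM in the siPOLR3A libraries (-0.93, SE 0.02). EIF4B, its cofactor, held 1060.1, 1049 and 1057 CPM with control siRNA and 561, 569 and 557 CPM with POLR3A siRNA (-0.91), and EIF3J, a loosely bound eIF3 subunit, held 144, 146 and 145 CPM with control siRNA and 68.6, 68.5 and 70.5 CPM with POLR3A siRNA (-1.07). The 3′ UTRs of these 3 genes carry 2 copies of GAGGGA each. At least 1 copy is carried by 7 of the 23 lower factors and by 10 of all 41, while 33% of all 3′ UTRs hold it. EIF3B, a core eIF3 subunit, went the other way, at 252, 253 and 254 CPM with control siRNA and 478, 477 and 468 CPM with POLR3A siRNA (0.91, adjusted p = 4.91e-13).

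Ribosomal protein genes were called less often than all genes as reported, but their calls depended on the processing. Of 77 tested 29 were called, 15 higher and 14 lower (37.7%, against 56.6% of all genes), but the higher calls numbered 36 with scaling by total counts, 40 by the upper quartile, 31 with a trend with GC content and length removed, and 25 without siControl replicate 3, and the lower calls 9 by the upper quartile. RPL27A and RPS15A were the members past 2-fold. RPL27A stood at 854, 829 and 879.5 CPM in the siControl libraries and 312, 299 and 315 CPM in the siPOLR3A libraries (-1.47, SE 0.03, adjusted p = 7.43e-14). RPS15A, named after its value was seen, fell by 1.21. RPS16 fell by 0.54, and RPS15 and RPL36 rose by 0.27 and 0.26, or by 0.12 and 0.10 with that trend removed. Ribosomal protein genes have many processed pseudogenes with which reads can be shared. Of 48 nucleolar biogenesis factors, 19 were higher (39.6%) and 14 lower (29.2%), against 27.4% and 29.2% of all genes. DDX10, a helicase of small subunit processing, and GRWD1, a histone-binding factor of the nucleolus, rose by 1.20 and 1.17, DDX10 from 46.9, 45.7 and 49.4 CPM with control siRNA to 105, 113 and 107 CPM with POLR3A siRNA and GRWD1 from 33.6, 33.6 and 33.9 CPM with control siRNA to 74.00, 77.8 and 75.9 CPM with POLR3A siRNA. NMD3, the export adaptor of the large subunit, fell by 0.86, with 171, 172 and 182 CPM with control siRNA and 92.7, 97.3 and 98.7 CPM with POLR3A siRNA, and TCOF1, a Pol I cofactor, fell by 0.65.

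Targets of ATF4, the transcription factor of the integrated stress response that follows amino acid or tRNA shortage, did not shift as a list. Of 34 tested, 9 were higher (26.5%, against 27.4% of all genes) and 11 lower (32.4%, against 29.2%), with a median of -0.005. After removal of a trend with GC content and length, 4 were higher and 14 lower. PYCR1 and ALDH18A1, of proline synthesis, fell by 0.70 and 0.57, PYCR1 from 71.4, 73.6 and 73.3 CPM with control siRNA to 45.4, 44.1 and 44.98 CPM with POLR3A siRNA. ATF5 rose by 0.43, with 7.24, 8.90 and 7.54 CPM with control siRNA and 9.63, 11.5 and 10.8 CPM with POLR3A siRNA, and by 0.29 with the trend removed. SLC7A5 and SLC3A2, the subunits of a leucine exchanger, stood at 0.12 and 0.15, and both lost their call when the trend with GC content and length was removed. Of 19 serine, asparagine and one-carbon enzymes, 9 were lower (47.4%, against 29.2%) and 3 higher (15.8%, against 27.4%), or 5 higher with scaling by total counts. GLDC, of glycine cleavage, stood at 82.5, 91.1 and 87.6 CPM in the siControl libraries and 44.9, 44.2 and 45.4 CPM in the siPOLR3A libraries (-0.96, SE 0.04), and PHGDH, which commits glycolytic carbon to serine, fell by 0.38.

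Nutrient sensing and transport changed in both directions. Of 37 genes of mTORC1 and lysosomal amino acid sensing, 16 were lower (43.2%, against 29.2% of all genes) and 10 higher (27%, against 27.4%). Besides SLC36A1, CASTOR2, a relative of the arginine sensor with a near-identical copy elsewhere in the genome, rose by 0.98, with 22.3, 21.8 and 21.3 CPM with control siRNA and 42.2, 44.5 and 42.2 CPM with POLR3A siRNA, and SESN3, a sestrin, rose by 0.57. RPS6KB1, the S6 kinase downstream of mTORC1, fell by 0.94, with 137, 135 and 134 CPM with control siRNA and 69.9, 71.2 and 70.3 CPM with POLR3A siRNA, and LAMTOR1, which anchors the Ragulator complex to lysosomes, fell by 0.86. Of 24 plasma membrane amino acid transporters, 10 were lower (41.7%, against 29.2% of all genes) and 8 higher (33.3%, against 27.4%), and 4 were higher with a trend with GC content and length removed. SLC38A1, for glutamine, fell by 0.62, with 418, 409.6 and 405 CPM with control siRNA and 264, 270.3 and 265 CPM with POLR3A siRNA, and SLC1A3, a glutamate carrier, fell by 0.81.

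Other stress programmes were mixed. Of 25 p53 targets, 9 were higher (36%, against 27.4% of all genes) and 8 lower (32%, against 29.2%), in a line in which large T antigen binds p53. TP53INP1 rose by 0.63 while POLH fell by 0.57. Of 19 cytosolic chaperones 9 were higher (47.4%, against 27.4%) and 3 lower (15.8%, against 29.2%). HSP90AA1 stood at 2364, 2456 and 2481 CPM in the siControl libraries and 3691, 3736 and 3660.2 CPM in the siPOLR3A libraries (0.60), and its co-chaperone gene DNAJA1 rose by 0.66, while HSPA8, the constitutive HSP70, fell by 0.69, with 1566, 1596 and 1729 CPM with control siRNA and 1008, 1003 and 1032 CPM with POLR3A siRNA. Of 28 genes of the unfolded protein response of the endoplasmic reticulum, 9 were lower (32.1%, against 29.2%) and 6 higher (21.4%, against 27.4%). The higher genes included PDIA4, a disulfide isomerase, at 27.9, 24.6 and 28.4 CPM with control siRNA and 51.5, 60.03 and 63.9 CPM with POLR3A siRNA (1.11). HSP90B1, the HSP90 of that compartment, fell by 0.47. Of 21 NRF2 targets and redox genes 7 were higher (33.3%, against 27.4%) and 6 lower (28.6%, against 29.2%). GCLM, of glutathione synthesis, stood at -0.59 and the ferritin genes FTH1 and FTL at 0.28 and 0.29.

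Of 34 interferon-stimulated and RNA-sensing genes, 8 were higher (23.5%, against 27.4% of all genes) and 9 lower (26.5%, against 29.2%), and 5 were higher with an offset for isoform length. The largest changes were falls. TRIM25, a ubiquitin ligase that assists RIG-I, held 104, 109 and 102 CPM in the siControl libraries and 41.9, 42.5 and 41.9 CPM in the siPOLR3A libraries (-1.31, SE 0.03), and MAVS, the adaptor of RIG-I-like receptors on mitochondria, held 155, 154 and 146 CPM with control siRNA and 71.8, 75.9 and 74.1 CPM with POLR3A siRNA (-1.04). HERC5, described above, belongs to the same list. The 3′ UTRs of HERC5, TRIM25 and MAVS hold 1, 3 and 9 copies of GAGGGA, and 6 of the 9 lower members and 11 of the 34 hold at least 1. The largest called rise, named after its value was seen, was that of ISG20, an RNA exonuclease, at 1.01, and DTX3L and PARP9 stood at 0.19 and 0.44.

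Genes of lipid synthesis changed in both directions. Of 20 genes of fatty acid synthesis and desaturation 6 were higher (30%, against 27.4% of all genes) and 8 lower (40%, against 29.2%), with FADS1 and FADS2 past 2-fold. FADS2, the delta-6 desaturase, whose gene neighbours FADS1, stood at 75.1, 77.1 and 77.9 CPM in the siControl libraries and 23.5, 23.6 and 24.00 CPM in the siPOLR3A libraries (-1.69, SE 0.03), and SCD, the delta-9 desaturase, held 1364, 1338 and 1321 CPM with control siRNA and 829.5, 838 and 819 CPM with POLR3A siRNA (-0.69). FASN, fatty acid synthase, and ACLY, which supplies cytosolic acetyl-CoA, rose by 0.49 and 0.25, FASN from 378, 377 and 356 CPM with control siRNA to 500.2, 546 and 519 CPM with POLR3A siRNA, and the desaturase gene SCD5 rose by 0.29. FASN stood at 0.25 with a trend with GC content and length removed. The 3′ UTRs of FADS1, FADS2 and SCD hold 4, 4 and 3 copies of GAGGGA, and those of FASN, ACLY and SCD5 none. Over the list 9 genes hold it, 5 of the 8 lower genes among them. Of 26 cholesterol genes, 11 were higher (42.3%, against 27.4%) and 9 lower (34.6%, against 29.2%). EBP, a sterol isomerase, stood at 70.2, 71.1 and 74.4 CPM with control siRNA and 36.2, 35.5 and 36.3 CPM with POLR3A siRNA (-0.998). SCAP, the escort of SREBP, stood at 0.53.

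Glycolytic genes were lower in 12 of 23 cases (52.2%, against 29.2% of all genes) and higher in 7 (30.4%, against 27.4%), a balance of 8 to 8 with scaling by total counts. With a trend with GC content and length removed 16 were lower and 6 higher, and with an offset for isoform length 9 and 5. TPI1, triose phosphate isomerase, fell by 0.55, with 699, 691 and 708 CPM with control siRNA and 485, 475 and 473 CPM with POLR3A siRNA, and the neuronal enolase gene ENO2 fell by 0.52. The higher members included ARRDC4 and TXNIP (0.53), paired arrestins under the glucose-sensing factor MondoA, and MLXIP (0.32, or 0.20 with an offset for isoform length), which encodes MondoA. TXNIP held 34.8, 36.1 and 35.7 CPM with control siRNA and 50.9, 53.3 and 49.3 CPM with POLR3A siRNA.

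Nuclear genes of the respiratory chain were lower more often than higher, at 18 (40%, against 29.2% of all genes) and 6 (13.3%, against 27.4%) of 45, with 10 higher by the upper quartile and 3 by DESeq2. Of the 13 mitochondrially encoded mRNAs, 0 were called by edgeR's quasi-likelihood test (against 56.6% of all genes), DESeq2 or limma-voom. At an unadjusted p below 0.05 of the first test there were 0, and 3 were called higher without siControl replicate 2. The mitochondrial share of matched reads was 8.16 to 9.73% in the siControl libraries, highest in replicate 2, and 8.64 to 8.98% in the siPOLR3A libraries. The part of this spread in the lack of calls was not tested. NDUFB10, a subunit of complex I, fell by 1.44, with 132, 134 and 142 CPM with control siRNA and 49.8, 51.3 and 49.5 CPM with POLR3A siRNA. SDHC, of complex II, fell by 0.44, and COX6C, of complex IV, rose by 0.30. The mitochondrial mRNAs ranged from -0.12 (MT-CYB) to 0.17 (MT-ND2), with a median of -0.04. Of 17 mitochondrial proteases, 6 were higher and 6 lower (35.3% each, against 27.4% and 29.2% of all genes), and apart from PITRM1 none passed 2-fold. LONP1, the matrix AAA protease, rose by 0.31, or 0.12 with a trend with GC content and length removed, and PMPCB, a subunit of the processing peptidase, fell by 0.29.

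Genes of DNA replication were lower in 23 of 46 cases (50%, against 29.2% of all genes) and higher in 12 (26.1%, against 27.4%), with 19 lower and 14 higher under scaling by total counts and 7 higher with a trend with GC content and length removed. ORC2, of the origin recognition complex, fell by 0.74, with 141, 147 and 147 CPM with control siRNA and 85.7, 87.9 and 86.2 CPM with POLR3A siRNA, and MCM4, of the replicative helicase, fell by 0.54, with 565, 579 and 587 CPM with control siRNA and 388, 405 and 395 CPM with POLR3A siRNA. CDC7, the kinase that fires origins, rose by 0.25. Of 43 mitotic and cell cycle genes, 15 were higher and 15 lower (34.9% each, against 27.4% and 29.2% of all genes). CCND2, the G1 cyclin D2, and CDC25A, a phosphatase that activates CDKs, fell by 1.06 and 0.98, CCND2 from 357, 345 and 341 CPM with control siRNA to 172, 167 and 162 CPM with POLR3A siRNA. CCND1 and CCNE1, for cyclins D1 and E1, rose by 0.44 and 0.75, and the CDK inhibitor gene CDKN1B rose by 0.75, with 45.2, 48.1 and 50.4 CPM with control siRNA and 79.95, 81.5 and 80.3 CPM with POLR3A siRNA. Of 15 replication-dependent histone genes, 6 were lower (40%, against 29.2%) and 0 higher (against 27.4%) by edgeR's quasi-likelihood test. At an unadjusted p below 0.05 of that test 0 were higher, and 0 were called higher by DESeq2 or limma-voom. H4C15, which has near-identical copies, held 13.4, 14.5 and 12.4 CPM with control siRNA and 5.90, 6.41 and 7.75 CPM with POLR3A siRNA. Most histone mRNAs lack a poly(A) tail, so only a part of their pool was measured.

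Survival and immediate early genes changed in both directions. Of 37 immediate early genes 17 were higher (45.9%, against 27.4% of all genes) and 7 lower (18.9%, against 29.2%), with a median of 0.10. KLF2 and DUSP6, named after their values were seen, had the largest rises, 1.66 and 1.27, at levels below 2 CPM. MCL1, which protects mitochondria from apoptosis, had the smallest p of the rises, with 141, 145 and 150.3 CPM in the siControl libraries and 324, 327 and 317 CPM in the siPOLR3A libraries (1.15, SE 0.03, adjusted p = 4.77e-13). ZFP36L2, an mRNA decay factor, and KLF10, a zinc finger repressor, both gave 0.80, ZFP36L2 from 45.2, 43.3 and 45.5 CPM with control siRNA to 79.6, 78.3 and 75.8 CPM with POLR3A siRNA. ID2, an inhibitor of helix-loop-helix factors, fell by 0.60. Of 28 genes of the BCL2 family and death receptors, 11 were higher (39.3%, against 27.4% of all genes) and 10 lower (35.7%, against 29.2%), or 6 lower with an offset for isoform length. XIAP, a caspase inhibitor, rose by 0.46, TNFRSF10D, a decoy receptor for TRAIL, rose by 0.75, and BMF, a pro-apoptotic BH3 protein, fell by 0.48.

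The list of synaptic and neuronal genes under the repressor REST also holds REST itself. Of its 33 tested genes, 16 were higher (48.5%, against 27.4% of all genes) and 7 lower (21.2%, against 29.2%), with a median of 0.26. The counts were the same with scaling by total counts and by the upper quartile. By DESeq2 12 were higher and 7 lower. With a trend with GC content and length removed 13 were higher and 8 lower, and with an offset for isoform length 15 and 6. SYP, MAPK8IP2 and STMN3 belong to this list, which was put together with these rises known. The neurofilament genes NEFM and NEFL fell by 1.39 and 0.68, NEFM from 358, 324 and 325 CPM with control siRNA to 133, 118 and 133 CPM with POLR3A siRNA. REST itself, named after its value was seen, stood at -0.55 and was called lower. Of 11 genes of the TCEAL and BEX family, 6 were lower (54.5%, against 29.2%). BEX1 was higher, with 9.75, 9.32 and 9.25 CPM with control siRNA and 20.2, 20.8 and 18.6 CPM with POLR3A siRNA (1.07). TCEAL8 held 143, 141 and 151 CPM in the siControl libraries and 55.7, 54.6 and 54.3 CPM in the siPOLR3A libraries (-1.40). None of the 11 genes has GAGGGA in its 3′ UTR.

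The proteasome was lower in 17 of 32 cases (53.1%, against 29.2% of all genes) and higher in 5 (15.6%, against 27.4%), with 11 lower and 6 higher when scaled by the upper quartile. The higher members numbered 3 without siControl replicate 1 or 2 and without siPOLR3A replicate 1 or 2. NFE2L1, the transcription factor that drives proteasome genes, stood at 173, 175 and 172 CPM in the siControl libraries and 61.01, 59.8 and 58.9 CPM in the siPOLR3A libraries (-1.53, SE 0.03, adjusted p = 4.21e-14). PSMD3 of the regulatory particle fell by 0.60, with 129, 135 and 132 CPM with control siRNA and 87.2, 88.3 and 84.9 CPM with POLR3A siRNA, and DDI2, the protease that activates NFE2L1, rose by 0.49. Of 12 genes of RNA interference 6 were lower (50%, against 29.2% of all genes) and 2 higher (16.7%, against 27.4%), with 3 lower under an offset for isoform length and 4 higher with a trend with GC content and length removed. PRKRA, a partner of Dicer, fell by 0.89, with 36.2, 33.99 and 39.3 CPM with control siRNA and 19.5, 19.98 and 19.5 CPM with POLR3A siRNA, or by 0.47 with neighbouring transcripts added, and AGO1, an Argonaute, fell by 0.29. Of the 6 lower genes 5 hold GAGGGA, as do 7 of the 12. Of 29 SR proteins, hnRNPs and CLK kinases 13 were lower (44.8%, against 29.2%) and 7 higher (24.1%, against 27.4%). HNRNPK stood at -0.54 and PTBP1 at 0.30, or 0.18 with the GC content and length trend removed.

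**Figure D5:**
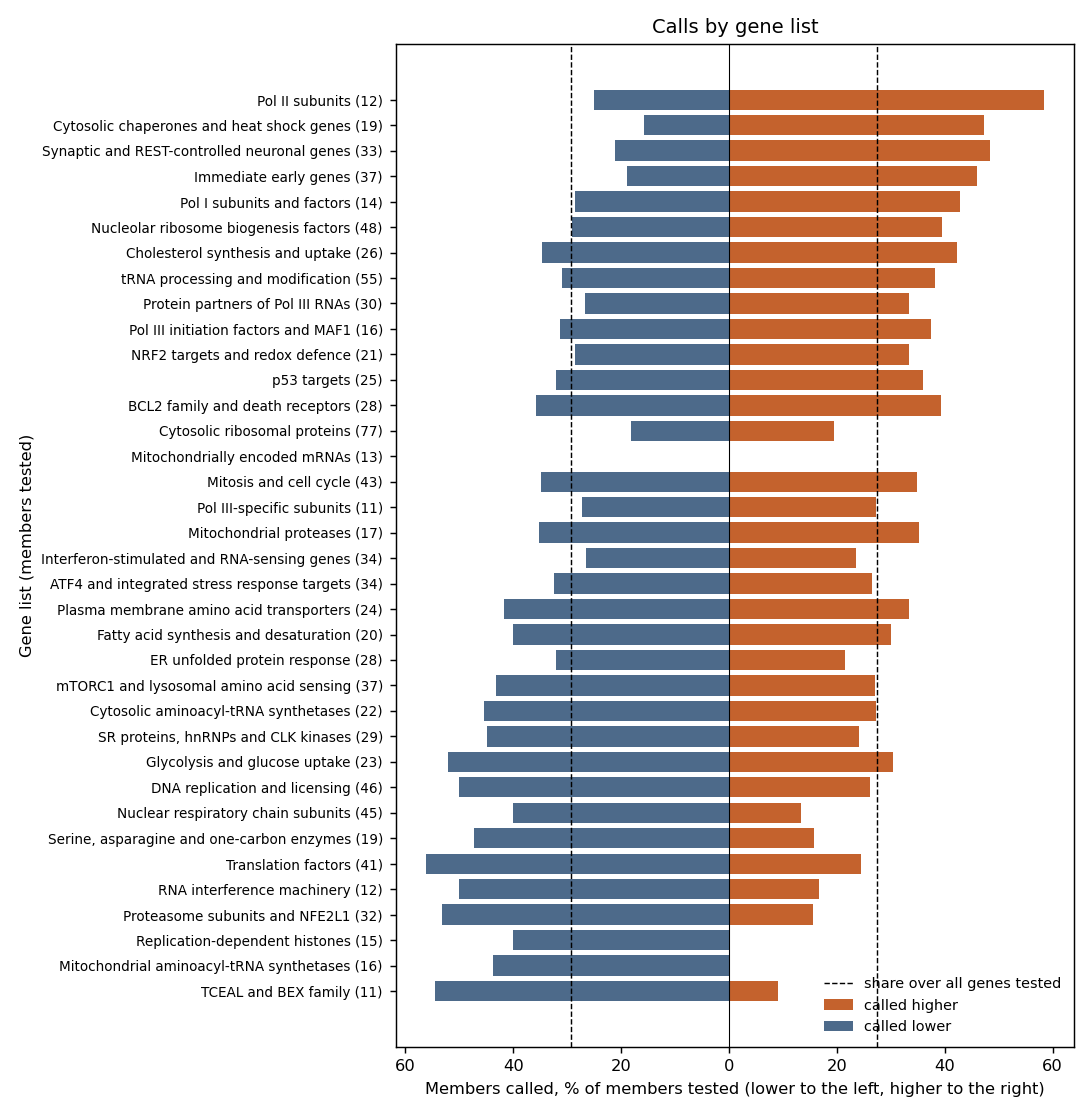
Share of the tested members of each of 36 gene lists called higher (orange, to the right) and lower (blue, to the left), in percent, with the number tested in parentheses and dashed lines at the shares over all genes, 27.4% higher and 29.2% lower. Neuronal, immediate early and chaperone genes lie to the right, translation factor, proteasome and mitochondrial synthetase genes to the left, and the mitochondrially encoded mRNAs have no bar.

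The series asks about Pol III at promoters of protein-coding genes, so genes were also placed by the distance of their start from the 480 Pol III genes (443 of them tRNA genes) of the RefSeq table for GRCh38.p14. Of 46 tested protein-coding genes that start within 1 kb of one, 13 were higher, 12 lower and 21 neither, which is 54.3%, against 58.9% of the 14287 that start more than 20 kb away. The median size of change was 0.22 near and 0.23 far. The genes named here were chosen after their values were seen. MAP1LC3B, an autophagy gene beside a methionine tRNA gene, rose by 0.49, from 88.9 ± 0.678 to 124.6 ± 4.61 CPM (SD, n = 3). NCOA7, beside a glutamate tRNA gene, fell by 0.81, from 58.3 ± 1.12 to 33.3 ± 1.10 CPM. PARP2, which shares its promoter region with the RNase P RNA gene RPPH1, fell by 0.30, from 98.5 ± 1.46 to 80.1 ± 0.821 CPM. TMEM259, beside a U6 gene, rose by 0.53. POLR3E, which lies beside a leucine tRNA gene, was not called (-0.01).

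The leading genes were then set beside ML60218, which targets the same enzyme for a shorter time. The design differs in agent, time and control, so only the values and the test of the difference are given. Of the 12 leading rises, 11 differed between the effects (edgeR's quasi-likelihood test on the interaction), and their ML60218 log2 fold changes ran from -0.36 to 0.45, with 6 called and 2 of these in the same direction. All 12 leading falls differed, with ML60218 values from -0.36 to 0.26, of which 4 were called and 3 were in the same direction. ML60218 against DMSO gave calls for 6029 of 15461 genes (39%). Over all genes the difference was called for 8031 of 15780 (50.9%), and because the leading genes were chosen for large siPOLR3A changes their count is not evidence about the inhibitor. PITRM1 stood at -0.08 with ML60218, SLC16A1 at -0.21, SYP at -0.05 and SLC36A1 at -0.36. POLR3A mRNA itself was -0.38 with the inhibitor (adjusted p = 0.00023).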

How the data were processed

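The authors deposited a single table of estimated counts of reads and of TPM values, both per transcript, with the column names that salmon writes, per the file headers; the version and settings of that step are not given in the sources used here. The submitters' processing notes name bcl2fastq 2.20, Trim Galore, DESeq2 and hg38, and the libraries came from a stranded mRNA kit, per the labels' protocols. Of 194142 transcripts, 158359 (81.6%) matched GENCODE release 29 on GRCh38 by identifier. Their counts were summed per gene and rounded. The 6 libraries of the comparison were scaled by TMM, filtered with filterByExpr (minimum count 10, total 15) and tested with edgeR 4.0.16 (quasi-likelihood, Benjamini-Hochberg, called below 0.05) in R 4.3.3, without a replicate term. The difference from ML60218 was tested over all 12 libraries. Results were recomputed with limma 3.58.1, DESeq2 1.42.0, other scalings, filters and gene assignments, and without each library. The scripts were tested on simulated data.

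Genes named were POLR3A, all tested Pol III subunits and factors, and, among called genes whose groups did not overlap and that kept their call with neighbouring transcripts added, the 12 largest protein-coding changes per direction above a mean level of 3 log2 CPM, and up to 3 members per list and direction with the smallest p; exceptions are marked. Results of some of these genes are not reported here, though list counts include them unless stated. The gene lists, the hexamers and the members were chosen with earlier results of these data known.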

Additional observations from a re-analysis of the deposited data

How the results depend on the processing

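The count of called genes, 8722 as reported, lay between 7402 (an offset for isoform length) and 9163 (neighbouring transcripts added), with 7508 by DESeq2, 8754 by limma-voom and 7997 to 8361 when each library was left out in turn. The numbers called higher and lower, and called lower by 2-fold, stayed within 1.5 times of those reported under all 19 alternatives. The 290 genes called higher by at least 2-fold became 141 when genes below a count of 50 were removed, which takes out low genes, and 417 with no filter. POLR3A ran from -2.43 to -2.02, and from -2.43 to -2.25 without each library. Of 217 called genes that the naming rule took, 197 kept direction and call under every alternative. Outside POLR3A and the Pol III subunits and factors, the rule took genes with large changes or small p. It also required their call with neighbouring transcripts added, which is 1 of the 19 alternatives. The count therefore does not describe called genes at large. SLC7A5 turned to -0.0196 and ATP5F1D to -0.12 with the trend of GC content and length removed (-0.0193 and -0.12 with the replicate block too), and HSPA4L turned to 0.0023 and ORC4 to -0.12 with the isoform length offset; the cause was not tested. Same-numbered libraries of the groups did not deviate together (r of -0.04, -0.01 and -0.07), so the numbers were not taken as pairs; the replicate block gave 8493 called genes, and POLR3A at -2.37. The hexamer shares stayed within their 95% Wilson intervals with the longest 3′ UTR of each gene. With 3 libraries a group, genes in the lowest quartile of levels were called least often, and small changes there could not be seen.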
